A study of Mus musculus with 4 samples.

Results

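The heterogeneous nuclear ribonucleoproteins (hnRNPs) and the serine- and arginine-rich (SR) proteins are the main families of general splicing regulators. The members described here were all rows of the expression table whose gene symbol begins with Hnrnp or Srsf, which gave 33 of 32230 symbols: 21 hnRNP rows and 12 SR rows. The cells were 4F2A mouse embryonic fibroblasts of male, homozygous, mid-gestation embryos, whose Oct4, Sox2, Klf4 and Myc transgenes are switched on by doxycycline. All 4 libraries came from cells kept in doxycycline at 2 µg/mL from day 0 and harvested on day 2 of reprogramming, and the genotype label separates only control from treated cells. In 2 libraries, numbered replicates 2 and 3, the vehicle DMSO was given for 1 h on day 0, and in the other 2, with the same numbers, CX-5461, an inhibitor of RNA polymerase I, was given for 1 h. Nothing says that replicates were grown as separate cultures, and p-values therefore reflect a spread between libraries that may be technical.

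SR proteins bind exonic enhancers through RNA recognition motifs and, through a tail rich in arginine and serine, recruit the spliceosome to nearby splice sites. Many hnRNPs coat nascent RNA and silence splice sites, so that the choice of an exon can depend on the balance between members of the 2 families, of which the antagonism of hnRNP A1 and SRSF1 is the textbook case. Members of both families also act in mRNA export, stability and translation, and many SR genes hold a poison exon through which the protein lowers its own message by nonsense-mediated decay. The table gives 1 value per gene, so splice forms, poison exons included, were not measured.

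Fibroblast markers were high in every library: Col1a1 stood between 3114 and 4321 TPM, and Vim between 2616 and 3514. Of 10 such markers 5 fell (Lum, Pdgfra, Dcn, Thy1 and Col3a1) and 0 rose, beside 8.21% of all tested genes lower and 11.6% higher. Only Lum kept its call with each library left out. Those of Dcn, Thy1 and Col3a1 ended without CX-5461 replicate 2 or 3 (adjusted p of 0.0683 to 0.273), that of Pdgfra without CX-5461 replicate 3 (0.0620), and that of Thy1 also without DMSO replicate 3 (0.0605). The sum of all 10 ran from 9583 to 10119 TPM with CX-5461 and from 10685 to 13369 TPM with DMSO. TPM is a level corrected for gene length and expressed relative to the rest of its library. Of 5 tested epithelial markers 0 passed, and the 6 listed summed to 25.4 to 42.1 TPM, with Epcam at or below 0.443 TPM. Krt14, the highest of them, stood at 26.4 and 26.9 TPM with DMSO and 10.8 and 18.4 TPM with CX-5461 (adjusted p = 0.0641), and passed in 7 of 14 alternatives. Markers of pluripotent cells (Nanog, Zfp42) and of endothelium summed to at most 0.5 TPM in each library, and Ptprc, which marks blood cells, reached at most 1.27 TPM, while Cd68 stood between 26.7 and 52.6 TPM. Lyz2, also listed as a blood marker, rose from 518 ± 14.5 to 815 ± 56.7 TPM (SD, n = 2, limma adjusted p = 0.00677). Depth, recovered from the TPM values, was 35.3M to 37.6M reads per library. DMSO replicate 3 stood apart in composition: mitochondrially encoded genes took 15.3% of its TPM and 9.20% to 9.96% in the other libraries. All 10 mitotic genes examined fell, and their summed TPM was 569 and 535 with DMSO but 22.7 and 22.8 with CX-5461. The part of these shifts in the results below was not tested. In bulk RNA, fewer cells of a type and less RNA per cell cannot be told apart.

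Since 8 members fell together, as described further on, the 250 bases before the annotated start are shown for the largest falls that passed in each family (Hnrnpa1 and Srsf2), for Srsf1, and for Srsf5, which lay on the higher side. Sequences are from RefSeq (GRCm38.p6, the assembly of mm10), 5′ to 3′ on the strand of the gene, and distances are from the RefSeq start, which for Hnrnpa1 and Srsf5 lies upstream of the GENCODE gene start. Capitals mark the CCAAT box (CCAAT), the TATA box (TATAAA), an E2F core (TTCCCGCC) and an ETS core (CCGGAAG), searched on both strands.
Hnrnpa1, chr15:103240147-103240396, + strand: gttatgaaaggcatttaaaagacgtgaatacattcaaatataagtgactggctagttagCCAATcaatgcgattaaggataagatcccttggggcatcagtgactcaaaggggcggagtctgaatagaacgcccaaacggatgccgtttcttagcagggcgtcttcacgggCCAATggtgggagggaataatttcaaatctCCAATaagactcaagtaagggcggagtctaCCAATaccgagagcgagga
Srsf2, chr11:116853095-116853344, - strand: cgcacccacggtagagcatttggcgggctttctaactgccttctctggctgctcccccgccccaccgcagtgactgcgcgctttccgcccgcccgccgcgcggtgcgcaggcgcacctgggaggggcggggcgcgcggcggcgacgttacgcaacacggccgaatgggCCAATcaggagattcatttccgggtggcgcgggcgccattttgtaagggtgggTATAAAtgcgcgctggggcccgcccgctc
Srsf1, chr11:88047123-88047372, + strand: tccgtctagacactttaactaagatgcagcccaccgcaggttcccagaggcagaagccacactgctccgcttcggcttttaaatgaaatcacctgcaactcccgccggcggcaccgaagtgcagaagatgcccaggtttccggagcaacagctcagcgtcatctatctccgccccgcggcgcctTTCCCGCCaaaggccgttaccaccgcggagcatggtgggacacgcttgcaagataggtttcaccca
Srsf5, chr12:80945249-80945498, + strand: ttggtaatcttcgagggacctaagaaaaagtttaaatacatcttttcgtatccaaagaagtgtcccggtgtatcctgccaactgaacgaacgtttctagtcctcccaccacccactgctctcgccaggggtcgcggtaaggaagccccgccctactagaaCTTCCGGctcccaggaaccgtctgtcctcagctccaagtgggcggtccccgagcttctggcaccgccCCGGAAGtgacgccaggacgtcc

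A RefSeq promoter was matched for 30 of the 33 members. The stretch before Hnrnpa1 holds 4 CCAAT boxes, beginning 191, 79, 49 and 19 bases before the start. Srsf2 has 1 CCAAT box at 82 and a TATA box at 29 bases, Srsf1 an E2F core at 66 bases, and Srsf5 an ETS core on each strand at 90 and 23 bases. CCAAT occurred in 16 of the 30 member promoters and in 34.5% of 27018 RefSeq promoters of the same length. It occurred in 5 of the 8 promoters of members that fell. The E2F core occurred in 5 of 30 (Hnrnpa2b1, Hnrnpul1, Srsf1, Srsf4, Srsf10) and in 1.87% of all promoters. The E-box CACGTG, bound by MYC with MAX, occurred in 2 of 30, Hnrnpa3 and Hnrnpd, and in 6.05% of all. GC boxes (GGGCGG), whose letters can overlap the E2F core, occurred in 23 of 30 and in 32.9% of all, beside a median GC content of 64.4% in member promoters and 52.0% in all. The ETS core occurred in 6 of 30 (7.05% of all), the TATA box in 4 (13.0%) and the cell cycle element TTTGAA in 4 (16.3%). A palindrome known from housekeeping promoters was in 0 (0.41% of all). In the 8 promoters of members that fell, GC boxes occurred in 6 and the ETS core in 1. The E2F core, the E-box, the TATA box and TTTGAA occurred in 2 of these each, and the palindrome in 0. These matches are descriptions of the letters and not evidence of binding.

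The first comparison asked how the families differed in level. hnRNP messages were the more abundant. Hnrnpab, an A/B-type protein that also binds single-stranded DNA and takes part in mRNA transport, had the highest mean over the 4 libraries at 480.1 TPM, followed by Hnrnpa0 (366), Hnrnpa1 (344) and Hnrnpf (298). Their ranges overlapped for each neighbouring pair in that order. The highest SR genes were Srsf5 (174 TPM), Srsf2 (146), Srsf6 (135) and Srsf1 (103), again with overlapping ranges between neighbours. At the low end stood Srsf12 (1.86 TPM), an SR protein known to oppose other SR proteins, and 2 rows named as pseudogenes, of which GENCODE lists Srsf3-ps as protein-coding. Srsf3-ps had 3.41 to 5.24 TPM, and Hnrnpa1l2-ps2 0.0809 to 0.256 TPM, which is 0.8 to 2.8 recovered reads. Hnrnpa1l2-ps2 was below the filter of a mean of 1 TPM, so 32 members were tested: 20 hnRNP and 12 SR rows.

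**Figure D1:**
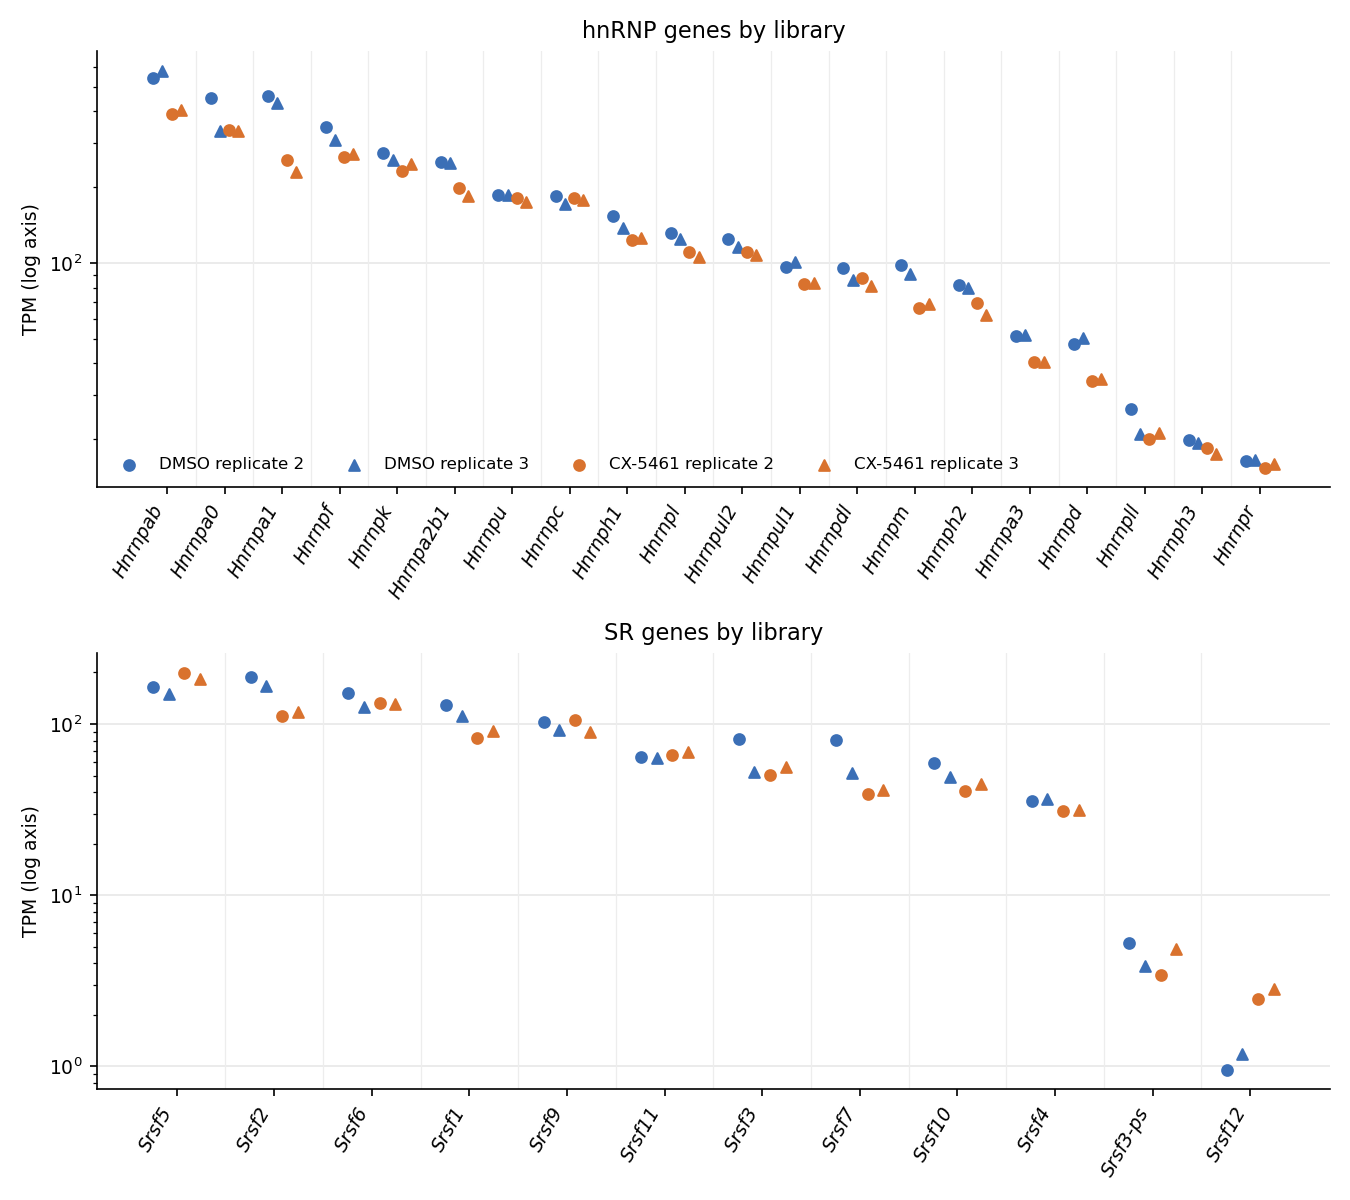
TPM of the 32 tested members in each library, on log axes, ordered by mean level within each family, with DMSO in blue and CX-5461 in orange. For Hnrnpa1, Hnrnpab and Srsf2 both CX-5461 points lie below both DMSO points, for Srsf5 and Srsf12 they lie above, and for Srsf3 and Hnrnpa0 the DMSO replicate 2 point stands alone above the other 3.

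The second comparison was CX-5461 against DMSO. Of the 20 tested hnRNP rows 6 were lower and 0 higher, and of the 12 SR rows 2 were lower and 0 higher (limma on log2(TPM + 1), adjusted p under 0.05 over all 14621 genes tested). Among all tested genes 8.21% were lower and 11.6% higher, so the share of lower hnRNP rows was 30.0% and that of SR rows 16.7% against a background of 8.21%. Without adjustment, 11 hnRNP and 4 SR rows were lower at p under 0.05, and 0 and 2 were higher. The median log2 difference (CX-5461 minus DMSO) was -0.23 for hnRNP and -0.16 for SR rows, and 0.07 for all tested genes. The SR median depended on 1 library: it was 0.04 without DMSO replicate 2. Members are mostly abundant, and a limit of 15 TPM, chosen after seeing the data, kept 8159 genes, of which 8.35% were lower and 14.8% higher, with a median of 0.08. All 20 hnRNP rows and 10 SR rows pass that limit, with 6 and 2 lower. Their medians there were -0.23 and -0.25, so the order of the family medians turns once the low rows Srsf3-ps and Srsf12 are left out. In tests on simulated data this fit gave more false calls than the threshold promises.

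Fewer calls were left when a CX-5461 library was dropped: without CX-5461 replicate 2 only Hnrnpa1 stayed below the threshold among the members, and without CX-5461 replicate 3 none did. In those fits the spread comes from the DMSO pair alone. Under other scalings of the same values more members passed. Then 10 to 11 hnRNP and 4 SR rows were lower with median-of-ratios scaling, quantile normalization, or rescaling without mitochondrial and the 20 highest genes. Over all tested genes, those lower also increased, from 1201 to 1660, 1646 and 1681 in the same order.

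By library, 16 of the 20 hnRNP rows had both CX-5461 values below both DMSO values, and 0 had both above. Among all tested genes 26.3% lay apart in the lower direction and 38.2% in the higher, and above 15 TPM the shares were 26% and 42.8%. The difference was below 0 in 19 of 20 hnRNP and 9 of 12 SR rows, beside 42.5% of all tested genes and 39.8% above 15 TPM. For SR rows 5 of 12 lay apart in the lower direction (Srsf1, Srsf2, Srsf4, Srsf7, Srsf10) and 3 in the higher (Srsf5, Srsf11, Srsf12), though the difference of Srsf11, 0.07, was -0.03 under quantile normalization. The 4 hnRNP rows tested whose libraries overlapped were Hnrnpa0, Hnrnpc, Hnrnpdl and Hnrnpll.

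**Figure D2:**
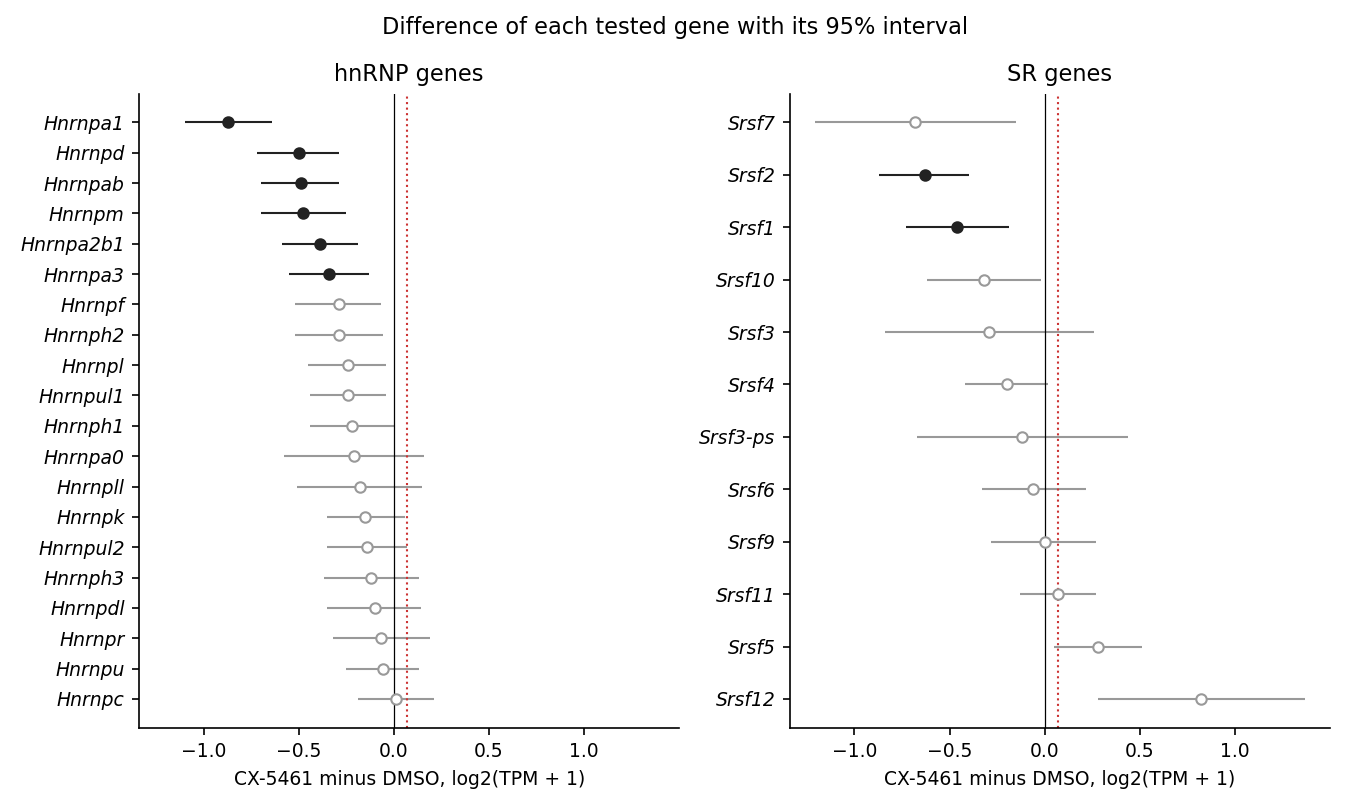
Difference between CX-5461 and DMSO on the log2(TPM + 1) scale for each tested hnRNP gene (left) and SR gene (right), with 95% intervals from limma. Filled points passed an adjusted p of 0.05 and the dotted line is the median of all tested genes (0.07). hnRNP differences run from -0.87 to 0.01 and SR differences from -0.68 to 0.82.

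Of the 5 genes grouped by name as A/B hnRNPs, 4 fell, beside 8.21% lower among all tested genes. The A/B group includes proteins that bind UAG-like motifs and mostly favour exon skipping, such as hnRNP A1. Hnrnpa1 (chromosome 15, 103240432 to 103246692, mm10) stood at 459 and 431 TPM with DMSO and at 256 and 230.5 TPM with CX-5461. The CX-5461 values lay far below both DMSO values, at 54.7% of the DMSO mean (log2 difference -0.87 ± 0.091 (SE), limma adjusted p = 0.00323). Its share of the summed hnRNP TPM went from 12.6% in both DMSO libraries to 9.08% and 8.25%. The call ended without CX-5461 replicate 3 (adjusted p = 0.0650) and held without each of the other 3 libraries.

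Hnrnpab (chromosome 11, 51600100 to 51606847) stood at 543 and 581 TPM with DMSO and at 390.3 and 406.5 TPM with CX-5461, so that the groups did not overlap (log2 difference -0.49 ± 0.082, adjusted p = 0.0130). An opposite-strand gene, Phykpl, overlaps 29.1% of its exon length, and counting by strand is not stated. Hnrnpa2b1, a reader of nuclear RNA that also sorts microRNAs, gave 252 and 250.3 TPM with DMSO and 198 and 185 TPM with CX-5461 (-0.39 ± 0.081, adjusted p = 0.0258). The DMSO pair was nearly equal, and both CX-5461 values lay below it, but the call ended without limma's trend and robust options (adjusted p = 0.0723). The smallest fall that passed was that of Hnrnpa3, at 51.2 and 51.9 TPM against 40.6 and 40.4 TPM (-0.34 ± 0.083, adjusted p = 0.0399). Pseudogenes nearly identical to it carried 258 to 439 TPM in the table, so its level is uncertain. Its values were tight within groups, yet the call ended with any library left out (adjusted p of 0.0570 to 0.246) and with a replicate block (adjusted p = 0.0770). Hnrnpa0, which binds AU-rich elements of cytokine messages, was the A/B gene that did not pass. It gave 454 and 335 TPM with DMSO and 339 and 335 TPM with CX-5461, so DMSO replicate 2 alone was high (difference -0.21, 95% interval -0.58 to 0.16, adjusted p = 0.370), and 0.01 without that library.

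Hnrnpd encodes AUF1, which binds AU-rich elements and directs mRNA decay. It gave 47.9 and 50.6 TPM with DMSO and 34.0 and 34.8 TPM with CX-5461 (log2 difference -0.50 ± 0.088, limma adjusted p = 0.0150), with no overlap between groups. Its paralog Hnrnpdl gave 95.7 and 85.3 TPM against 87.4 and 80.8 TPM, which overlapped (-0.10, 95% interval -0.35 to 0.14, adjusted p = 0.497). The ratio of Hnrnpd to Hnrnpdl was accordingly 0.500 and 0.593 with DMSO and 0.389 and 0.431 with CX-5461. Hnrnpm, a regulator of alternative exons that binds GU-rich RNA, fell from 98.7 and 90.2 TPM to 66.2 and 69.0 TPM (-0.48 ± 0.090, adjusted p = 0.0191), a call that also ended without those options (0.0546). Of its exon length, 14.7% is shared with March2 on the same strand.

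The other hnRNP genes did not pass. Those of the F/H group, which bind runs of G, all had both CX-5461 values below both DMSO values. Hnrnpf, the most abundant of them, gave 348 and 309 TPM with DMSO and 263 and 271.5 TPM with CX-5461 (log2 difference -0.29, adjusted p = 0.0768), beside 140.1 to 213 TPM listed under near-identical pseudogenes. Hnrnph2 and Hnrnph1 differed by -0.29 and -0.22 (adjusted p = 0.0825 and 0.135). Hnrnph3 (-0.12) was the least different. Hnrnpl, which binds CA repeats, and Hnrnpul1 were also lower in both CX-5461 libraries (-0.24 each, adjusted p = 0.0956 and 0.0903). Under median-of-ratios scaling and under quantile normalization Hnrnpf, Hnrnph1, Hnrnph2, Hnrnpl and Hnrnpul1 passed.

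Hnrnpk, a protein with KH domains that binds C-rich RNA and DNA, gave 272.5 and 258 TPM with DMSO and 232 and 247 TPM with CX-5461 (log2 difference -0.15, 95% interval -0.35 to 0.06, limma adjusted p = 0.267). The closest values of the groups were thus near each other. Hnrnpul2 (-0.14), Hnrnpll (-0.18) and Hnrnpr (-0.07) did not pass either. Hnrnpu, a nuclear scaffold protein that binds chromatin-associated RNA, gave 186 and 186 TPM against 180.5 and 175 TPM (-0.06, interval -0.25 to 0.13). Hnrnpc, which binds runs of U, gave 185 and 172 TPM against 182 and 178 TPM (0.01, interval -0.19 to 0.21). The CX-5461 values of Hnrnpc lay between the DMSO values, and the sign of its difference changed under the scaling alternatives.

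Among the SR genes, Srsf2 (chromosome 11, 116849901 to 116853094) encodes SC35, a component of nuclear speckles that activates exons. It gave 189 and 167 TPM with DMSO and 111 and 117 TPM with CX-5461. The groups lay well apart, at 64.2% of the DMSO mean with CX-5461 (log2 difference -0.63 ± 0.096, limma adjusted p = 0.00964). The call ended without CX-5461 replicate 2 (adjusted p = 0.111) and without CX-5461 replicate 3 (0.106). Its exons overlap the opposite-strand genes Mettl23 and Mfsd11 over 15.6% and 9.7% of their length. Srsf1 (chromosome 11, 88047373 to 88053755), the prototype SR protein, gave 129 and 111 TPM against 82.5 and 90.7 TPM (-0.46 ± 0.109, adjusted p = 0.0361). It did not pass without DMSO replicate 2 (adjusted p = 0.0679), without CX-5461 replicate 2 (0.231) or without CX-5461 replicate 3 (0.169), and it stayed negative in each. Its call also ended with no filter (0.0764) and without limma's trend and robust options (0.0853).

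Srsf7 varied more between libraries than either. This SR protein with a zinc knuckle, which also adapts mRNA for export, gave 80.3 and 52.1 TPM with DMSO and 38.9 and 41.1 TPM with CX-5461. DMSO replicate 2 was far above DMSO replicate 3, though both exceeded the CX-5461 values (log2 difference -0.68, 95% interval -1.21 to -0.15, limma adjusted p = 0.0814). The difference was -0.37 without DMSO replicate 2 and -0.99 without DMSO replicate 3, where it passed (adjusted p = 0.0171), as it did under the 3 other scalings (0.0286 to 0.0351). Srsf3, its close relative in sequence, gave 81.5 and 52.2 TPM against 50.5 and 55.9 TPM. Here too DMSO replicate 2 alone was high, and DMSO replicate 3 fell between the CX-5461 values (-0.29, interval -0.84 to 0.26, adjusted p = 0.394). The difference of Srsf3 was 0.03 without DMSO replicate 2 and -0.61 without DMSO replicate 3. Although both genes varied between the DMSO libraries, their ratio did not: Srsf3 over Srsf7 was 1.01 and 1.00 with DMSO and 1.30 and 1.36 with CX-5461.

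Srsf10, a repressor of splicing when dephosphorylated, gave 59.0 and 48.7 TPM with DMSO and 40.7 and 44.9 TPM with CX-5461 (log2 difference -0.32, limma adjusted p = 0.123). The difference was -0.18 without DMSO replicate 2, and Srsf10 passed under the 3 other scalings (adjusted p of 0.0375 to 0.0399). Srsf4 gave 35.4 and 36.7 against 31.1 and 31.4 TPM (-0.20, adjusted p = 0.165), but 43.0% of its exon length overlaps an opposite-strand transcript. Srsf6, a close relative of Srsf4, gave 151 and 125 TPM with DMSO and 132.5 and 131 TPM with CX-5461 (-0.06, interval -0.33 to 0.22, adjusted p = 0.740). The CX-5461 values of Srsf6 lay between those of the DMSO pair. Srsf9 also had overlapping libraries (0.00, interval -0.28 to 0.27). Srsf11, an SR protein that binds near 3′ splice sites, had all values between 63.7 and 68.9 TPM. The row Srsf3-ps, which may share reads with Srsf3, did not pass (-0.12, interval -0.67 to 0.44).

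The SR genes Srsf5 and Srsf12 lay on the higher side, though neither passed, and 38.2% of all tested genes lay apart in that direction. Srsf5, which like Srsf1 has a pair of RNA recognition motifs, gave 164 and 150.3 TPM with DMSO and 199 and 183 TPM with CX-5461. The lowest CX-5461 value was above the highest DMSO value, but the gene did not pass (log2 difference 0.28, 95% interval 0.05 to 0.51, limma adjusted p = 0.0863). As a share of the summed SR TPM, Srsf5 made up 15.4% and 16.6% with DMSO and 23.1% and 21.2% with CX-5461, and Srsf2 17.8% and 18.5% with DMSO and 12.9% and 13.6% with CX-5461. The most abundant SR message was Srsf2 in both DMSO libraries and Srsf5 in both CX-5461 libraries. Srsf12 gave 0.958 and 1.18 TPM with DMSO and 2.48 and 2.84 TPM with CX-5461, or 31 and 43 against 80 and 90 recovered reads. Its mean with CX-5461 was 248% of that with DMSO, just outside the threshold (0.82, interval 0.28 to 1.37, adjusted p = 0.0519). With limma's voom on recovered reads, an alternative added after seeing the data, both passed, Srsf5 at an adjusted p of 0.0393 and Srsf12 at 0.0203. That fit called 2320 genes higher in all, against 1694 in the main fit.

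Ratios between members follow from the values above and were examined for 10 pairs, 9 of related genes and Srsf2 with Srsf5, all chosen after the values were seen. With 2 libraries against 2, the smallest two-sided p of an exact permutation test is 0.333, so no ratio could pass. In 6 of these 10 pairs the ratio lay apart between groups in all libraries. Among single tested genes 26.3% lay apart in the lower direction and 38.2% in the higher. No such share was computed over other gene pairs, so the count of 6 is only a description. The widest shift was that of Srsf2 over Srsf5, at 1.15 and 1.11 with DMSO and 0.559 and 0.641 with CX-5461. Next came Hnrnpa1 over Hnrnpa3, from 8.96 and 8.31 down to 6.31 and 5.71. Pseudogenes nearly identical to Hnrnpa3 carried 258 to 439 TPM per library, so the size and shift of that ratio are uncertain. Srsf1 over Srsf9 went from 1.26 and 1.20 to 0.785 and 1.01, and Srsf5 over Srsf6 from 1.09 and 1.20 to 1.5 and 1.39. The ratios of Hnrnph1 to Hnrnph2, Hnrnpl to Hnrnpll, Hnrnpul1 to Hnrnpul2 and Srsf4 to Srsf6 overlapped between groups.

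The third comparison set the families against each other. Summed over all rows, hnRNP genes took 3643 and 3416 TPM with DMSO and 2819 and 2794 TPM with CX-5461. The CX-5461 libraries were close to each other and below both DMSO libraries (log2 difference of the sums -0.33). Summed SR genes took 1062 and 904 TPM with DMSO and 863 and 862 TPM with CX-5461. Here DMSO replicate 3 was near the CX-5461 libraries, and the difference of -0.18 was -0.07 without DMSO replicate 2. The ratio of the hnRNP to the SR sum was 3.43 and 3.78 with DMSO and 3.27 and 3.24 with CX-5461. Both CX-5461 ratios were the lower, but the gap to DMSO replicate 2 was smaller than that between the DMSO libraries. The hnRNP sums and these ratios leave out pseudogene rows near-identical to Hnrnpa3 (258 to 439 TPM) and Hnrnpf (140.1 to 213 TPM).

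**Figure D3:**
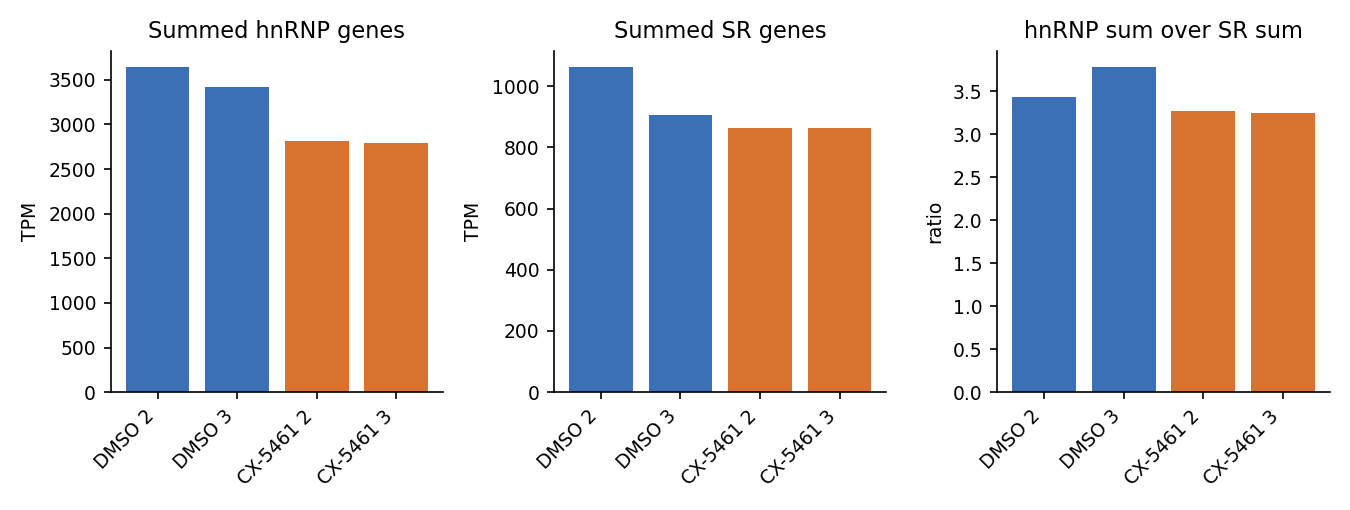
Summed TPM of the 21 hnRNP rows and of the 12 SR rows, and the ratio of these sums, in each library (DMSO blue, CX-5461 orange, each bar 1 library). The hnRNP sum is lower in both CX-5461 libraries (2819 and 2794 against 3643 and 3416 TPM), while the ratio stays between 3.24 and 3.78.

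Other splicing genes were then described by lists. Of 12 hnRNP proteins whose genes carry other names, 4 fell and 0 rose, with a median log2 difference of -0.30. Among all tested genes 8.21% were lower and 11.6% higher. Rbmx (hnRNP G) fell from 20.5 and 23.0 TPM to 11.1 and 10.9 TPM, 50.4% of its DMSO mean (limma adjusted p = 0.00527), and Pcbp3, a poly(C)-binding protein, fell to 47.6% (adjusted p = 0.0121). Syncrip (hnRNP Q) fell to 69.3% (adjusted p = 0.0232). Of 21 tested SR-related proteins 2 fell, a share near the 8.21% of all tested genes, and 0 rose. They were U2af1, the small subunit of the factor that reads the 3′ splice site (-0.46, adjusted p = 0.0293), and Tra2b, an SR-like exon activator (-0.41, adjusted p = 0.0304). Both calls ended with any library left out. The SR-related median was -0.05, beside 0.07 for all tested genes. By library, 9 of the 21 SR-related rows lay apart in the lower direction and 3 in the higher, beside 26.3% and 38.2% of all tested genes.

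Of the 10 tested genes listed as SR kinases and nuclear import factors, none passed with limma, and 1 was lower and 1 higher at an unadjusted p under 0.05. Srpk1, which phosphorylates SR proteins in the cytoplasm, stood at 28.3 and 26.4 TPM with DMSO and 21.4 and 21.8 TPM with CX-5461 (log2 difference -0.33, adjusted p = 0.0673). Clk1, which acts on them in the nucleus, stood at 25.1 and 23.4 against 28.6 and 29.0 TPM (0.24, adjusted p = 0.132). With limma's voom on recovered reads Srpk1 passed and Clk1 did not. The same held under the 3 other scalings, where Srpk1 had limma adjusted p of 0.0269 to 0.0279. Of 39 core proteins of the spliceosomal ribonucleoproteins, 7 fell and 1 rose (median -0.22), beside 8.21% of all tested genes lower and 11.6% higher. Snrpf, a ring protein shared by several of these particles, fell from 41.6 ± 1.38 to 25.2 ± 0.280 TPM (limma adjusted p = 0.00576). Snrnp70 of the U1 particle (-0.41, adjusted p = 0.0236) and Snrnp40 of the U5 particle (-0.53, adjusted p = 0.0237) fell too. Prpf6, a bridge of the tri-snRNP, rose from 97.1 ± 0.674 to 127 ± 3.39 TPM (0.39, adjusted p = 0.0242). Calls of these list genes also hung on single libraries. Without CX-5461 replicate 2 or 3, those of Rbmx, Syncrip, Snrpf, Snrnp70, Snrnp40, Prpf6 and Lyz2 ended, with adjusted p of 0.0559 to 0.226. Syncrip (0.0758) and Snrnp70 (0.0562) also ended without DMSO replicate 3, and Snrnp40 without DMSO replicate 2 (0.0543). Pcbp3 ended without DMSO replicate 3 (0.0615) or CX-5461 replicate 3 (0.0941).

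**Figure D4:**
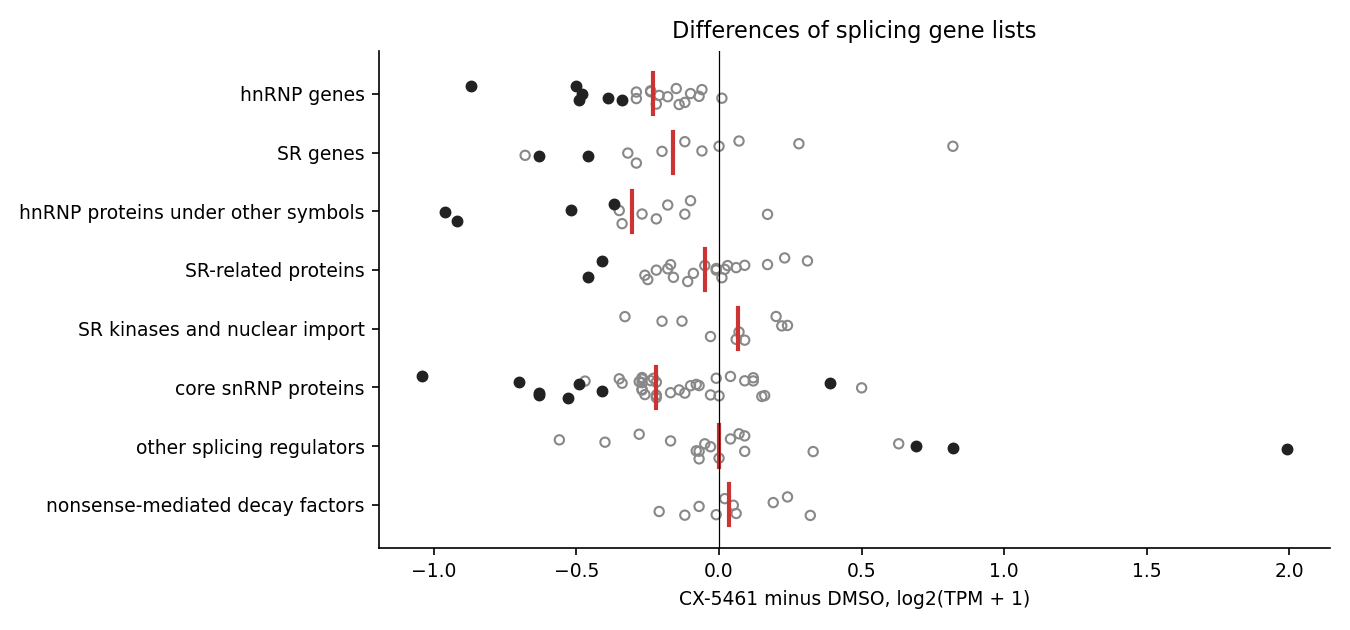
Differences between CX-5461 and DMSO on the log2(TPM + 1) scale for the tested genes of 8 splicing lists, with filled points past an adjusted p of 0.05 and a red bar at each median. The medians of the hnRNP (-0.23), other hnRNP (-0.30) and core snRNP (-0.22) lists lie below 0, and those of SR kinases (0.06) and decay factors (0.04) lie slightly above it.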

How the data were processed

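Polyadenylated RNA of 4 libraries was sequenced as paired-end reads of 150 bases, per the labels. The authors deposited TPM values, 1 column per library, each summing to 1000000. Per the labels' protocols, read cleaning used BMKCloud, an online platform, and the submitters' processing notes name build mm10. Neither aligner, counter, strand setting nor annotation is stated in the sources used here. Groups and replicate numbers came from the sample titles, and 0 columns were left unused.

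With R 4.3.3 and limma 3.58.1 (trended, robust eBayes), log2(TPM + 1) was compared for genes averaging 1 TPM or more, with 2 residual and 3.75 prior degrees of freedom, no covariate, and Benjamini-Hochberg adjustment over all 14621 genes. A fold change on this scale is understated for low genes. In tests on simulated data larger fold changes were recovered, but false calls exceeded the share the threshold of 0.05 promises. The simulated data had fewer changed genes than were called here and the same spread for every gene. Read numbers were recovered from TPM, GENCODE M21 exon lengths (mm10) and 1 constant per library. Of 71208 low values examined, 69.4% came within 0.01 of whole reads. Replicates differed by a chi-square of 15.6 (DMSO) and 8.69 (CX-5461) per degree of freedom, so neither pair was a copied library. Near-identical pseudogenes were sought with BLAST+ 2.17.0 (at least 90% identity over 300 bases). Scripts ran in Python 3.11.15 with numpy 2.4.6, pandas 2.3.3 and matplotlib 3.10.9.

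The members and lists were chosen with earlier results of these data known. Values were given in full for members past the threshold and the 4 most abundant of each family, and from each list for up to 4 genes with the smallest adjusted p, 2 where none passed, and all of a count of 5 or fewer, except that some list genes are not reported here. Other genes named, the ratios, the motifs and the promoters shown were chosen after their values were seen. Alternatives were pseudocounts of 0.1 and 5, a filter of 5 TPM or none, 3 other scalings, limma with neither trend nor robust option, a replicate block and each library left out, with limma's voom on recovered reads and the background above 15 TPM added after seeing the data.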

Additional observations from a re-analysis of the deposited data

How the results depend on the processing

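The counts of lower hnRNP and SR members, 6 and 2, were the same with pseudocounts of 0.1 and 5 and with a filter of 5 TPM. They were 5 and 1 with no filter (1051 genes higher and 823 lower in all). With median-of-ratios scaling they were 11 and 4 (1660 genes lower in all, against 1201 in the main fit). Quantile normalization gave 11 and 4 (1 SR gene, Srsf12, higher, and 1646 genes lower in all). Rescaling without mitochondrial and the 20 highest genes gave 10 and 4 (1681 genes lower in all). Without limma's trend and robust options they were 3 and 1 (1 SR gene, Srsf12, higher, with 1128 genes higher and 965 lower in all). With voom on recovered reads they were 12 and 4 (2 SR genes higher, with 2320 genes higher and 2210 lower in all). With 1 library left out, they ranged from 0 to 7 and from 0 to 4, and all genes from 218 to 2067 higher and from 337 to 891 lower. Low counts came without CX-5461 replicate 2 (299 higher, 398 lower) or replicate 3 (218 higher, 337 lower), where the single CX-5461 library is taken to vary as the DMSO pair does.

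In the same order (3 scalings, then voom), median log2 differences were -0.30, -0.34, -0.30 and -0.29 for hnRNP genes and 0.01, 0.02, 0.00 and 0.02 for all genes. With 1 library left out the hnRNP median ranged from -0.31 to -0.18, the SR median from -0.27 to 0.04 and that of all genes from 0.02 to 0.11. The difference of the hnRNP sums was -0.40 with median-of-ratios scaling. The 8 members that fell were below 0 in every alternative.

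Signs changed for members near 0. Hnrnpc was -0.06 with median-of-ratios scaling, -0.09 with quantile normalization, -0.06 with rescaling, -0.05 with voom, -0.04 when DMSO replicate 3 and -0.01 when CX-5461 replicate 2 was left out. Srsf11 was -0.03 under quantile normalization and 0.00 after rescaling. Without DMSO replicate 2, Hnrnpa0 was 0.01, Srsf6 0.08, Srsf9 0.07, Srsf3 0.03 and Srsf3-ps 0.06. Srsf3-ps was 0.09 without CX-5461 replicate 2, and Srsf9 0.11 without CX-5461 replicate 3. The lowest values with a library left out were -0.43 for Hnrnpa0, -0.19 for Srsf6, -0.12 for Srsf9, -0.61 for Srsf3 and -0.32 for Srsf3-ps. For none of these was the cause tested.

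With the replicate number as a block (replicate block), 5 hnRNP and 2 SR members were lower, 1589 genes were higher and 1100 lower. How same-numbered libraries relate beyond their number is not stated. Their deviations correlated at r = 0.03 across 14621 genes. This single correlation, in which DMSO replicate 3 stands apart in composition, cannot tell whether they shared a culture or batch. With 2 libraries per group, whether small differences pass depends on the fit, as for Hnrnph1.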

Other observations

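Of 19 tested splicing regulators outside these families, some cell-type-restricted and others widely expressed (Elavl1, Celf1), 3 rose and 0 fell (median log2 difference 0.00), beside 11.6% and 8.21% of all tested genes. Celf5, a CELF protein best known from brain, rose from 5.04 ± 0.638 to 23.2 ± 3.98 TPM (SD, n = 2, limma adjusted p = 0.00170), and it passed with each library left out. Its relative Celf4 rose from 3.14 ± 0.279 to 6.34 ± 1.26 TPM (adjusted p = 0.0346), a call that ended with any library left out. Rbm38, a p53-responsive regulator of splicing and mRNA stability, rose from 25.9 ± 1.74 to 42.4 ± 3.25 TPM (adjusted p = 0.00982). Its call ended without either CX-5461 library (highest adjusted p = 0.114). Of 10 nonsense-mediated decay factors, which clear poison-exon messages, none passed with limma, and 0 did so at an unadjusted p under 0.05. Upf3a stood at 18.9 and 20.5 TPM with DMSO and 22.1 and 28.0 TPM with CX-5461 (0.32, adjusted p = 0.158), and it did not pass with voom on recovered reads either.

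Pseudogene rows nearly identical to Hnrnpa3 together had higher TPM than Hnrnpa3 itself. GENCODE M21 holds 38 pseudogenes at least 90% identical to its transcripts over 300 bases, and the 19 found in the table summed to 422 and 439 TPM with DMSO and 298 and 258 TPM with CX-5461. Hnrnpa3 itself had 51.2, 51.9, 40.6 and 40.4 TPM. Gm5641, identical over 1080 aligned bases, alone had 228 and 238 TPM with DMSO and 166 and 149 TPM with CX-5461. For Hnrnpf, 3 such rows were listed, and Gm12435, the highest, had 159 and 160.2 TPM with DMSO and 105 and 106 TPM with CX-5461. Hnrnpa1 has 17 such pseudogenes, but the 4 in the table summed to at most 0.342 TPM in any library. Levels of Hnrnpa3 and Hnrnpf are therefore uncertain, and so is the place of Hnrnpa3 in the order of members. In Gm5641, Gm12435 and the summed Hnrnpa3 pseudogenes, as in Hnrnpa3 and Hnrnpf themselves, both CX-5461 values lay below both DMSO values. The other Hnrnpf rows, Gm7446 (39.5 and 25.7 against 24.3 and 30.2 TPM) and Gm7803 (14.97 and 7.51 against 10.4 and 14.1 TPM), overlapped between groups.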
